A study of Mus musculus with 12 samples.

Results

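The mRNA of the mouse embryonic epicardium (EE) at E10.5 was described by itself, from 3 of the 12 sequencing samples of the series. The members were the 3 columns of the mRNA count table that belong to this stage, here called EE1, EE2 and EE3, and no value was set against the proepicardium, the other stage of the series. Epicardial cells were isolated by fluorescence-activated sorting from mice that carry green fluorescent protein at the Wt1 locus, given as strain Wt1Cre-EGFP in the labels and as Wt1GFP/+ in the paper. The labels do not state by which signal the cells were sorted, nor the sex of the embryos. No treatment was given. Each library came from a separate pool of at least 5 embryos, and 2.5 ng of total RNA was amplified into cDNA with a kit that keeps no record of the strand. The libraries are therefore 3 pools of animals of 1 genotype with no contrast between them, and the values below are levels and spreads, with no test.

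The epicardium is the mesothelial sheet that covers the heart. It forms from the proepicardium, keeps an epithelial character with keratins and uroplakins while it spreads over the myocardium, and later sends cells into the wall that become fibroblasts and mural cells of the coronary vessels. Wt1, Tcf21 and Tbx18, transcription factors, and Aldh1a2, an enzyme that makes retinoic acid, are among the genes by which these cells are commonly recognised. The sheet also secretes growth factors that act on the muscle beneath it.

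The libraries held 24481780 counts in EE1, 22810844 in EE2 and 18464362 in EE3. Of the 55228 genes of the table, 22186 had at least 1 count in EE1, 23335 in EE2 and 18763 in EE3. Levels are given as CPM, the counts per 1000000 counts of the same library, and, where genes are set against each other, as TPM, for which CPM was divided by the length of the gene's merged exons and rescaled to 1000000 per library. A count of 0 allows up to 3 counts, for counting error only, which at these depths is a level of 0.123, 0.132 or 0.162 CPM in turn. Counts were spread over many genes. The 10 highest genes took 4.93% to 5.08% of a library, the 100 highest took 19.97% to 20.4%, and 50% of the counts was reached with 672 to 743 genes. There were 11874 genes at 1 CPM or more in all 3 libraries, 1873 at 100 CPM or more and 74 at 1000 CPM or more.

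Some genes that every cell uses were listed at 0 or near it, and their sequences are not unique in the genome. Of the 37 genes of the mitochondrial genome, 12 were listed at 0 in every library. Among them were mt-Atp6, which encodes a subunit of the ATP synthase, and mt-Co2 and mt-Co3, which encode subunits of the respiratory chain. In each of these 12 genes, 100% of the 50-base stretches of the gene occur, base for base, at more than 1 place of the GRCm38 chromosomes. The share was 0% in mt-Nd1 and mt-Cytb, subunits of complexes of the same chain, which were among the highest genes of the table. Copies elsewhere did not always go with a 0. mt-Co1, of the same chain, had a share of 51.1% and 1426, 2228 and 1874 CPM, and mt-Nd4 had 62.2% and 565, 931 and 901 CPM. The transfer RNA genes mt-Te and mt-Tn had 100% and a count in all 3 libraries, none of them above 0.975 CPM. The share was 63.8% in Actg1, cytoplasmic gamma-actin, with 12.7, 6.53 and 4.44 CPM in EE1, EE2 and EE3, and 9.41% in Actb, beta-actin, with 3261, 3543 and 3487 CPM. How reads with several matches were counted is not given in the sources used here, and its part in these values was not tested. The share was 0% in Upk1b, Mdk, Id3, Tcf21, Wt1, Hbb-y and Hba-x.

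In CPM, the 20 highest genes were mt-Nd1, Sparc, Ldha, Itm2a, mt-Cytb, Actc1, Hsp90ab1, Hspa5, Actb, Myl7, Cnbp, mt-Rnr2, Upk1b, Anxa2, Tmsb4x, Aldoa, Tpm1, Pdia6, Hnrnpa2b1 and Hsp90b1. They hold matrix, glycolytic, chaperone and contractile genes beside the mitochondrial ones. Sparc, a secreted collagen-binding protein, was at 7986, 4936 and 5479 CPM in EE1, EE2 and EE3. Itm2a, which encodes a small integral membrane protein, was at 6403, 3907 and 4444 CPM. Both were highest in EE1, with EE2 the lowest. Ldha, the lactate dehydrogenase subunit of glycolytic tissue, was at 5236, 6034 and 5861 CPM, and Hspa5, the main chaperone of the endoplasmic reticulum, at 4402, 4444 and 3649 CPM.

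With length taken into account, 13 of those 20 genes stayed among the first 20. mt-Nd1 led with 20926 ± 7229 TPM (SD, n = 3). Myl7, the atrial myosin light chain, followed with 19603, 13340 and 15580 TPM in EE1, EE2 and EE3. Actc1, cardiac alpha-actin, was at 9307, 9767 and 4187 TPM, and so was lowest in EE3. Tmsb4x, thymosin beta-4, an actin-binding peptide of the epicardium and other cells, was at 5264, 4948 and 8813 TPM and was highest in EE3. Hbb-y, Hbb-bh1 and Hba-x, globins of embryonic red cells, also ranked among the first 20, on the strength of EE1 and EE2. Along the order of these 20 genes by TPM, each gene's range over the libraries overlapped that of the next. Neighbours with overlapping ranges could still keep the same order in every library. Hsp90ab1 stood above Actb in each, at 4097, 4139 and 3664 TPM against 3456, 3809 and 3491 TPM.

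The 21 genes of the epicardial list were at 1 CPM or more in all 3 libraries, against 11874 of all 55228 genes. The list was chosen with earlier results of these data known, so this count is no test of the cell label. Upk1b, a uroplakin of the tetraspanin family found in mesothelium, was highest of the list in TPM. Krt18 and Krt19, keratins of simple epithelia, were at 1270, 986 and 1195 CPM and at 594, 432 and 531 CPM. Wt1, the zinc finger factor whose locus carries the reporter, was at 49.2, 68.8 and 104.3 CPM in EE1, EE2 and EE3. The Wt1 level in EE3 was the highest, followed by EE2. The allele that carries the reporter may or may not add to these counts, which cannot be told from a table of genes. Aldh1a2 was at 117, 100.5 and 92.3 CPM, Gpm6a, a membrane glycoprotein, at 385, 227 and 172 CPM, and Msln, mesothelin, at 48.9, 21.7 and 17.9 CPM. These last 3 genes were highest in EE1 and lowest in EE3. Summed over the list, the epicardial genes gave 10001, 8140 and 10054 CPM, so that the highest library had 1.24 times the level of the lowest.

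**Figure D1:**
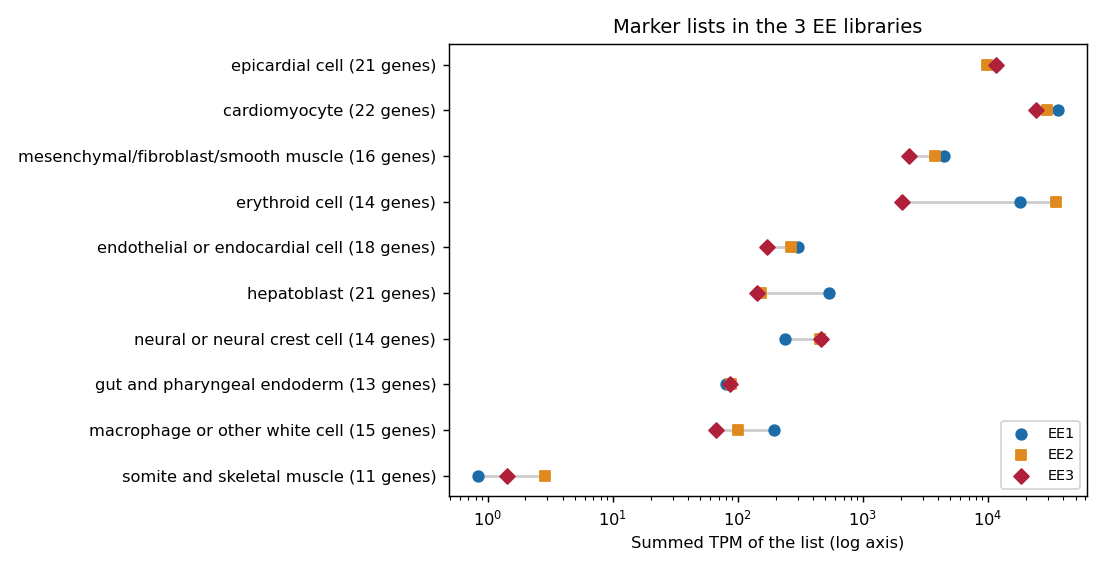
Summed TPM of 10 marker lists in the 3 EE libraries. Each row is a list, with the number of its genes, each symbol is 1 library, the grey line joins the lowest and the highest library, and the horizontal axis is logarithmic. The epicardial list lies between 9743 and 11662 TPM, while the erythroid list runs from 2066 TPM in EE3 to 35058 TPM in EE2.

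Markers of other cell types were present in the same libraries. The cardiomyocyte list of 22 genes summed to 36501, 29650 and 24282 TPM in EE1, EE2 and EE3, and the epicardial list of 21 genes to 11650, 9743 and 11662 TPM. Myl7 and Actc1 led the former. Myl2, the ventricular myosin light chain, was at 452, 468 and 274 TPM. By contrast, Nkx2-5, a transcription factor that defines cardiac muscle, was at 1.35, 0.734 and 1.01 TPM. Of the 20 cardiomyocyte genes with a mean of at least 10 CPM, 16 were lowest in EE3, whereas EE3 was the lowest library in 42.3% of all 8210 genes at that mean. The list of mesenchymal, fibroblast and smooth muscle genes summed to 6466, 4616 and 3279 CPM, with Acta2, smooth muscle actin, at 1686, 1915 and 1110 CPM and Dcn, the matrix proteoglycan decorin, at 1654, 791 and 910 CPM. What these genes owe to the epicardial cells themselves and what to other cells in the sort was not tested. In bulk RNA, fewer cells of a type and less RNA per cell cannot be told apart.

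Apart from the erythroid list, which is described with EE3, the remaining lists had low sums. The 18 endothelial and endocardial genes summed to 429, 393 and 262 CPM. Of them, 9 were at 1 CPM or more in all 3 libraries, against 11874 of all 55228 genes. Tek, the angiopoietin receptor, made up most of that list with 261, 224 and 137.5 CPM, while Pecam1 was at 3.47, 6.53 and 2.55 CPM, Cdh5 was at 1.92, 1.97 and 0.867 CPM, and Cldn5 was at 0 in all 3. Hepatoblast genes summed to 566, 177 and 164 CPM. Trf, transferrin, held most of it, but 63.5% of its exon bases are shared with Gm20425. Afp, the fetal serum protein, was at 40.9, 1.89 and 9.80 CPM, and thus far higher in EE1 than in EE2. White cell genes summed to 114, 68.0 and 39.3 CPM, and Ptprc, which defines white cells, was at 1.43, 0.921 and 0 CPM. The endoderm list rested on Krt7 and the neural list on Tubb3, a tubulin. Epcam was at 0, 0.745 and 1.68 CPM, and Foxd3 and Sox1 were at 0 in all 3. The somite and muscle list summed to no more than 2.37 CPM, with Pax3, Pax7 and Myod1 at 0.

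Of 781 transcription factors in the table, 611 had a count and 172 were at 10 CPM or more in all 3 libraries. The factors together took 1.40% to 1.42% of the counts of each library. Id proteins, which lack a DNA-binding basic region and hold back other helix-loop-helix factors, were the highest. Id3 was at 2349, 1804 and 2220 TPM in EE1, EE2 and EE3. Id2 was at 1163, 1519 and 1921 TPM, rising above the range of every factor other than Id3. Id1 was at 311, 357 and 504 TPM. Id1 and Id2 were highest in EE3, and Id3 was alike in EE1 and EE3. The 4 Id genes summed to 4056 TPM on average, of which Id3 held 52.4%. Along the 12 leading factors, neighbours had overlapping ranges except for Id2 over Fos and Klf6 over Tbx18.

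**Figure D2:**
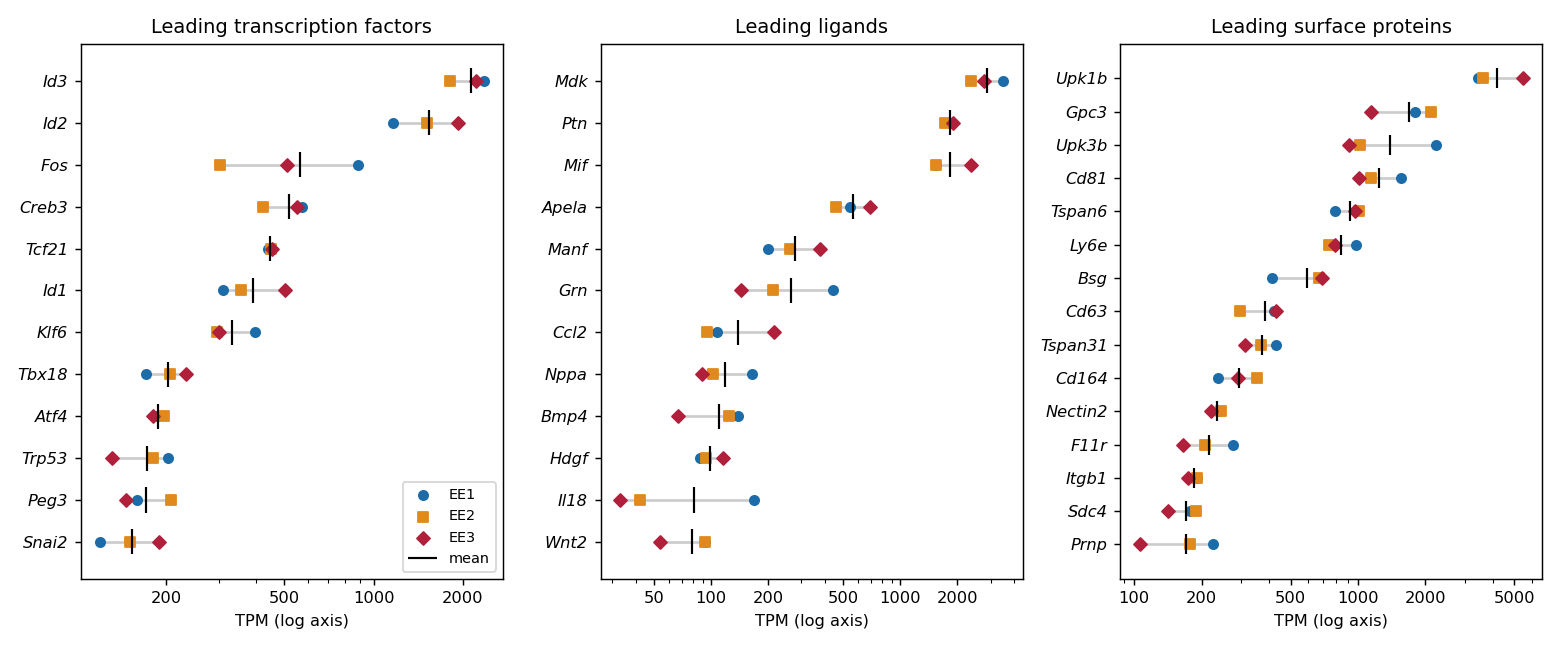
TPM of the 12 highest transcription factors, the 12 highest ligands and the 15 highest surface proteins, ordered by the mean. Each symbol is 1 library, the black bar is the mean of the 3, the grey line spans their range, and the horizontal axes are logarithmic. Tcf21 has its 3 libraries within 441 to 453 TPM, whereas Fos spans 303 to 886 TPM and Upk1b is highest in EE3 with 5485 TPM.

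Among the factors of the epicardium, Tcf21, a basic helix-loop-helix protein needed for cardiac fibroblasts, ranked 5 in the list at 441.3, 450.8 and 453 TPM in EE1, EE2 and EE3. On the TPM scale its 3 values lay closer together than those of the other 11 leading factors, 448 ± 6.20 TPM (SD, n = 3). On the CPM scale Atf4 was the closer, at 154.5, 160.5 and 157.8 CPM against 365, 368 and 397 CPM for Tcf21. Tcf21 made up 42.0% of the TPM of its family. Tbx18, a T-box factor, was at 170, 205 and 233 TPM and made up 83.3% of the T-box genes. Exons of another gene on the other strand, D030062O11Rik, cover 20.6% of the exon bases of Tbx18. Snai2, a zinc finger factor of epithelial-mesenchymal transition, was at 119, 151 and 189 TPM. Tbx18 and Snai2 were both lowest in EE1 and highest in EE3. Among the factors with a mean of at least 5 CPM, Wt1 ranked 39 with 22.6, 31.97 and 45.2 TPM. Gata4, a cardiac zinc finger factor, ranked 43 with 34.1, 33.5 and 26.9 TPM. Gata6, its relative, was at 20.1, 25.2 and 28.9 TPM, and Tbx5, a T-box factor of the heart, at 21.4, 25.7 and 13.5 TPM. The range of Wt1 overlapped those of Gata4, Gata6 and Tbx5, while the lowest value of Gata4 stood above the highest of Tbx5.

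The other leaders are factors of stress and growth that many cell types make. Fos, an immediate early gene of the AP-1 complex, was at 886, 303 and 509 TPM. EE1 was the highest and EE2 the lowest. Klf6, a zinc finger factor also induced early after stimulation, was at 398, 296 and 302 TPM, and Btg2 and Zfp36, other early genes, were at 254, 79.6 and 71.7 TPM and at 158, 43.0 and 59.4 TPM. Over the 24 immediate early genes the sum was 2556, 1403 and 1989 CPM, and of the 16 with a mean of at least 10 CPM, 13 were lowest in EE2, as were 1682 of all 8210 genes at that mean. Creb3, a factor anchored in the endoplasmic reticulum, was at 574, 425 and 553 TPM, with 20.8% of its exon bases covered by genes on the other strand. Atf4, which drives the response to amino acid shortage, was at 186, 196 and 180 TPM, and Trp53, the p53 tumour suppressor, at 202.6, 180.4 and 131 TPM. Peg3, an imprinted zinc finger gene with a long transcript, ranked 3 among the factors by CPM but 11 by TPM, where it was at 159, 207.5 and 146 TPM.

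Of 314 ligand genes, 228 had a count and 47 were at 10 CPM or more in all 3 libraries. Midkine and pleiotrophin, a pair of heparin-binding growth factors, came first. Mdk was at 3508, 2370 and 2755 TPM in EE1, EE2 and EE3, and Ptn was at 1872, 1724 and 1909 TPM. In TPM the lowest library of Mdk stood above the highest of Ptn. In CPM, without length, the order was the reverse in every library, with Ptn at 2263, 2055 and 2443 CPM and Mdk at 1636, 1089 and 1360 CPM. Mif, macrophage migration inhibitory factor, was at 1540, 1550 and 2371 TPM, but 47.3% of its 50-base stretches occur elsewhere in the genome. Below Ptn, the ranges of neighbours parted only between Mif and Apela and between Apela and Manf among the 12 leading ligands. Apela, a short peptide ligand of the apelin receptor, was at 542, 457 and 693 TPM, with 29.6% of its exon bases shared with Gm45886.

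The next ligands were lower and varied more between the libraries. Manf, which is secreted under stress of the endoplasmic reticulum, was at 200.2, 260 and 374 TPM, and was highest in EE3. Grn, progranulin, was at 441, 211 and 143 TPM, and was highest in EE1. Il18, an interleukin, was at 169, 41.8 and 32.8 TPM, and stood out in EE1. Ccl2, a chemokine, was at 107, 94.4 and 215 TPM, and was highest in EE3. Nppa, the atrial natriuretic peptide of heart muscle, was at 165, 102 and 89.2 TPM, with 61.5% of its exon bases covered by Gm13054 on the other strand.

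Among secreted factors of the classical signalling families, Bmp4, which patterns mesoderm and heart, was the highest of its superfamily and made up 39.7% of the TPM of these 33 genes, at 138, 125 and 67.0 TPM. Wnt2, a Wnt of the developing heart and lung, was at 92.3, 92.8 and 53.3 TPM and made up 56.5% of the Wnt and R-spondin genes. Bmp4 and Wnt2 were similar in EE1 and EE2 and lower in EE3. Hdgf, a heparin-binding nuclear and secreted protein, was at 87.2, 93.8 and 116 TPM. Tgfb2, a transforming growth factor beta, was at 43.8, 53.0 and 54.0 TPM with rank 20, and Bmp2 at 6.92, 9.87 and 16.3 TPM with rank 52. These ranks are among the ligands with a mean of at least 5 CPM. The Fgf ligands as a group reached 48.6 TPM, led by Fgf5. Of these, Fgf9, a mitogen of the epicardium for heart muscle, was at 5.64, 3.64 and 4.06 TPM, and Fgf18 at 11.8, 15.6 and 25.0 TPM. Bmp2 and Fgf18 were both lowest in EE1 and highest in EE3.

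Of 612 surface protein genes, 540 had a count and 165 were at 10 CPM or more in all 3 libraries. Tetraspanins and uroplakins were the highest family, with 9310 TPM on average, of which Upk1b held 44.9%. Upk1b was at 3440, 3623 and 5485 TPM in EE1, EE2 and EE3, and each library stood above the highest value of Gpc3, the second gene of the list. Upk1b lies on chromosome 16 of GRCm38 from 38773184 to 38800328, on the minus strand. Upk3b, the mesothelial uroplakin of another fold, was at 2234, 1018 and 916 TPM. These uroplakins thus differed in order, Upk1b being highest in EE3 and Upk3b in EE1.

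Gpc3, a glypican anchored to the membrane by a lipid, was at 1801, 2112 and 1150 TPM and held 77.3% of the TPM of the surface proteoglycans. Cd81 and Tspan6, tetraspanins, were at 1559, 1148 and 1012 TPM and at 792, 1009 and 973 TPM. Ly6e, a lipid-anchored protein of many cell types, was at 985, 742 and 790 TPM, and Bsg, basigin, at 414, 671 and 689 TPM. From Bsg on, the list holds general membrane proteins with overlapping neighbours. These are Cd63, Tspan31, Cd164, Nectin2, F11r, Itgb1, Sdc4 and Prnp, with means from 170 to 383 TPM. Nectin2 and F11r are adhesion proteins of cell junctions, and Itgb1 is the common beta subunit of matrix-binding integrins. Itgb1 was at 191, 191 and 173 TPM and Nectin2 at 239, 244 and 220 TPM, little apart between libraries.

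The receptors and adhesion proteins named next stood below these leading surface proteins. Axl, a receptor tyrosine kinase, was the highest of its family with 187, 165 and 115 TPM at rank 16. It was followed by Tek of the endothelial list at rank 24 with 157, 137 and 78.2 TPM. These ranks are among the surface proteins with a mean of at least 5 CPM. Nrp1, a co-receptor of semaphorins and Vegf, was at 123.5, 133.5 and 83.2 TPM. All 3 were lowest in EE3. Pdgfra, a receptor of cells that become fibroblasts, was at 22.5, 31.1 and 18.3 TPM, and Itga4, the integrin by which the epicardium holds to Vcam1 on muscle, at 33.1, 58.8 and 46.2 TPM. Vcam1 itself was at 11.6, 7.33 and 5.49 TPM.

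EE3 departed from EE1 and EE2 first in the number of genes seen. When all libraries were reduced to the total of EE3, the expected numbers of genes with a count were 21608, 22840 and 18763, so that the lower total did not make up the gap. At a minimum of 10 counts the numbers were closer, 15617, 15821 and 14757. There were 3027 genes with a count in EE1 and EE2 and none in EE3, against 742 missing from EE1 alone and 442 missing from EE2 alone. Of 3007 genes between 0.3 and 1 CPM in EE1, 36.05% were at 0 in EE3 and 10.8% in EE2, and of 3462 genes of that level in EE2, 38.3% were at 0 in EE3 and 17.0% in EE1. At 1 to 3 CPM in EE1, 11.98% were at 0 in EE3 and 1.77% in EE2. The losses faded at higher levels, with 1.18% and 0.107% at 3 to 10 CPM.

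**Figure D3:**
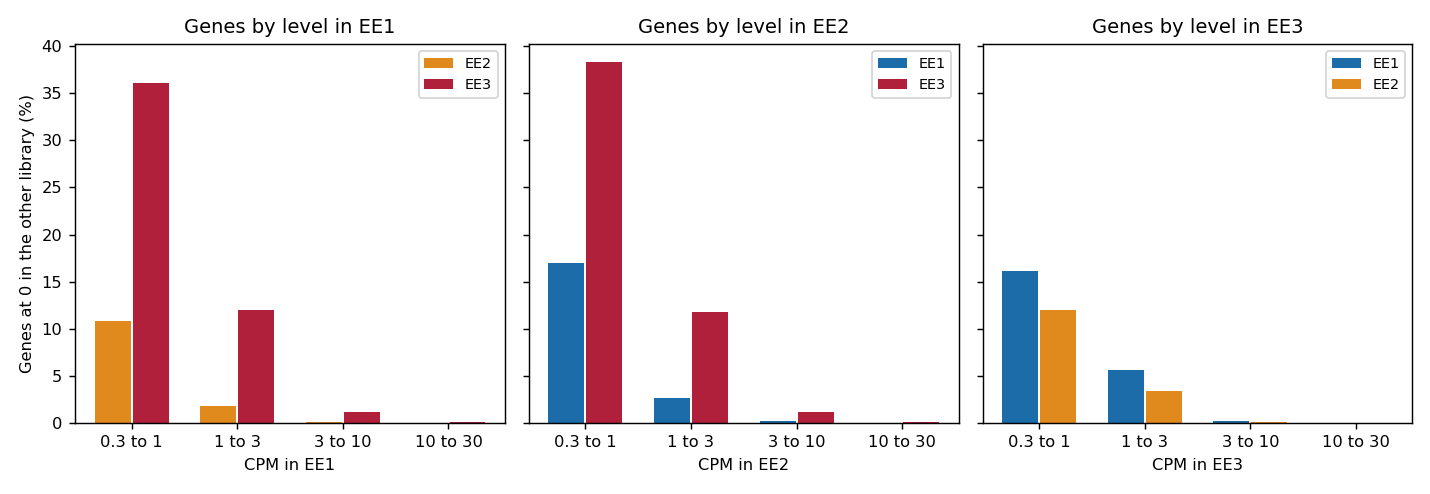
Share of genes at 0 counts in 1 library, by their CPM in another. Panels show genes grouped by their level in EE1, EE2 and EE3, the bars stand for the other libraries, and the vertical axis is percent of the genes in that class. Where genes are grouped by EE1 or EE2, the bar of EE3 is the higher at each level, with 36.05% and 38.3% in the lowest class.

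By gene type, protein-coding genes with a count numbered 14950, 15320 and 13599 in EE1, EE2 and EE3, which left EE3 at 89.9% of the mean of the other libraries. Long intergenic non-coding RNAs numbered 907, 1036 and 568, or 58.5%, and annotated antisense transcripts 933, 1099 and 587, or 57.8%. Their share of counts was not lower. Long intergenic RNAs took 0.525%, 0.574% and 0.711% of the counts, so that fewer such genes were seen with no loss of their summed level. H19, an imprinted long non-coding RNA, was at 1530, 1359 and 1926 CPM, and Malat1, a nuclear one, at 1870, 2466 and 3021 CPM. Both were highest in EE3.

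Over the 13336 genes with a mean of at least 1 CPM, the correlation of log2(CPM + 1) across genes was 0.974 between EE1 and EE2, 0.944 between EE1 and EE3 and 0.958 between EE2 and EE3 (Pearson's r, as a description, since genes of 1 library share its depth). The SD of the log2 ratio was 0.518, 0.767 and 0.662 for these pairs. The common dispersion of edgeR, a measure of spread between the libraries, was 0.144 over all 3 and 0.0850 without EE3, which correspond to a coefficient of variation of 37.9% and 29.2%. Without EE1 it was 0.155 and without EE2 0.208. EE1 and EE3 were therefore the pair farthest apart and EE1 and EE2 the closest.

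Genes of a departing level were counted with a fixed fold. Among 8210 genes with a mean of at least 10 CPM, EE3 was at least 4-fold below both EE1 and EE2 on the log2(CPM + 1) scale in 22 genes (0.268%) and at least 4-fold above both in 1 gene (0.0122%). For single pairs of libraries, in either direction, EE1 and EE2 were at least 4-fold apart in 7 genes (0.0853%). EE3 was that far from EE1 in 64 genes (0.780%) and from EE2 in 41 genes (0.499%). EE3 had been singled out for its few genes, so these counts describe it and test nothing. Trim55, a sarcomere-associated protein, lay just inside the limit with a log2 difference of 2.02, and Afap1l1, an actin-associated protein, just outside with 1.99.

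The genes farthest below included Rhag, Gm15915, Mfsd2b, Hbb-y, Hbb-bh1, Alas2, Hba-x, Hba-a1 and Gfi1b, and most of these serve red cells. Rhag, a channel protein of the red cell membrane, was at 23.9, 17.4 and 0.271 CPM, and Alas2, the erythroid enzyme that begins haem synthesis, at 26.8, 77.4 and 2.76 CPM. EE3 was lowest for each by a wide margin. Hbb-y and Hbb-bh1, embryonic beta-type globins, were at 1648, 3351 and 173 CPM and at 924, 2189 and 104 CPM. Hba-x, the embryonic zeta-type globin, was at 1765, 2696 and 244 CPM. In all 3 of these globins EE2 was the highest and EE3 the lowest. Mfsd2b, a lipid exporter of red cells, was at 19.03, 18.8 and 0.812 CPM, Gfi1b, a repressor of erythroid and megakaryocyte genes, at 20.1, 18.4 and 1.90 CPM, and Gm15915, annotated as an antisense transcript, at 21.4, 19.3 and 0.433 CPM. Hba-a1, an alpha-globin, was at 111, 172 and 15.1 CPM, but 92.5% of its 50-base stretches occur elsewhere too.

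**Figure D4:**
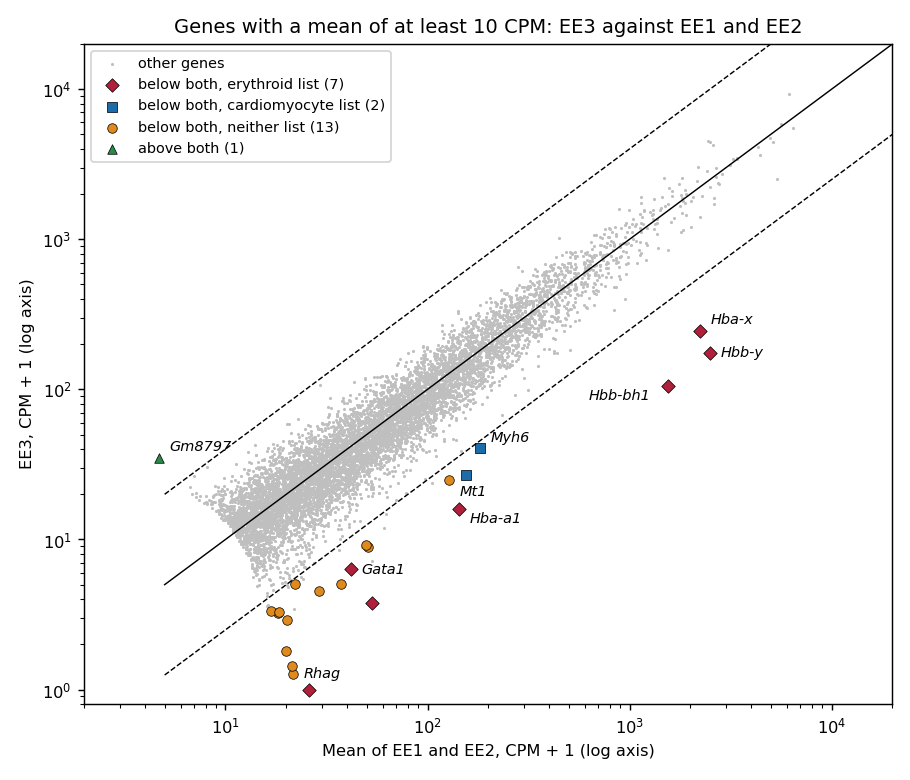
CPM + 1 in EE3 against the mean of EE1 and EE2 for the 8210 genes with a mean of at least 10 CPM, both axes logarithmic. The solid line marks equality and the dashed lines a 4-fold difference from that mean, coloured symbols are the 22 genes below and the 1 gene above both libraries, and grey points are the others. Of the 22 genes below, 7 are on the erythroid list and 2 on the cardiomyocyte list.

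Of the 22 genes, 7 were on the erythroid list, which holds 14 genes of the table. Of these 14, 10 had a mean of at least 10 CPM, and 9 of the 10 were lowest in EE3, with a median log2 ratio of -3.17 for EE3 over the mean of EE1 and EE2. Over all 8210 genes the median was -0.06 and EE3 was the lowest in 42.3%. The sum of the erythroid list was 4644, 8685 and 579 CPM. Gata1, the transcription factor of red cell precursors, was at 45.3, 35.9 and 5.36 CPM. Slc4a1, the anion exchanger of the red cell, was at 2.61 and 6.36 CPM in EE1 and EE2 and 0 in EE3, and Kel, a red cell surface protease, at 9.27, 11.6 and 0 CPM. Hbb-bs, an adult beta-globin whose stretches are to 58.0% not unique, ran against the list with 11.9, 6.93 and 12.9 CPM.

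The other members of the 22 genes were of mixed kinds. Myh6 and Actn2, the alpha myosin heavy chain and alpha-actinin of heart muscle, were at 177, 184 and 39.9 CPM and at 180, 129 and 25.7 CPM. Mt1, a metal-binding metallothionein, was at 153, 100.2 and 23.9 CPM, and its relative Mt2 at 11.03, 7.67 and 0 CPM, with 73.5% of the exon bases of Mt2 covered by Gm45774 on the other strand. Slc40a1, the iron exporter ferroportin, was at 21.98, 12.98 and 2.27 CPM, and Fermt3, an integrin activator of blood cells, at 50.2, 49.0 and 7.91 CPM. Lgals9, Slc38a5, Tmod1, Tmem63a and Trim55 were also among the 22. So was Gata1, which belongs to the erythroid list given above. Gm8797, the 1 gene above both, was at 2.74, 4.60 and 33.96 CPM, and 84.1% of its 50-base stretches occur at other places. With a limit of 5 CPM in the other libraries, 3 genes were at 0 in EE3 alone, Kel and Mt2 among them, while none was at 0 in EE1 alone or in EE2 alone.

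The stretch before the start of some of these genes is shown, because Gata1 and genes of red cells were low in EE3. Hbb-y, Hba-x, Rhag and Alas2 are given, and Tcf21, a leading factor of the epicardium, beside them. The sequences are the 250 bases before the RefSeq start on GRCm38.p6, 5′ to 3′ along the strand of the gene, and the capitals mark AGATAA or TGATAA or the reverse complements TTATCT and TTATCA, forms bound by Gata factors. The genes and the motif were chosen after the values were seen. The red cell genes shown are among the 6 genes below both libraries that held the motif, and none without it is shown.
Hbb-y, chr7:103853208-103853457, minus strand: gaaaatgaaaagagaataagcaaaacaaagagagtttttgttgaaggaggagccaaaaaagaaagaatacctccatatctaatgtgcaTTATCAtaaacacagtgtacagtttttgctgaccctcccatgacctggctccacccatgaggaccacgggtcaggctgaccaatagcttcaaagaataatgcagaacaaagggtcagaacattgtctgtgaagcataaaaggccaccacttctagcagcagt
Hba-x, chr11:32276350-32276599, plus strand: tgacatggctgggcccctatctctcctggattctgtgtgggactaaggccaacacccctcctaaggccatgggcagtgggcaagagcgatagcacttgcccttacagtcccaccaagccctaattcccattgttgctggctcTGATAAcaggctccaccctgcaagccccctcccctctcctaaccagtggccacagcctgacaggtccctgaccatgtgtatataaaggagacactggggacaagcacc
Rhag, chr17:40810899-40811148, plus strand: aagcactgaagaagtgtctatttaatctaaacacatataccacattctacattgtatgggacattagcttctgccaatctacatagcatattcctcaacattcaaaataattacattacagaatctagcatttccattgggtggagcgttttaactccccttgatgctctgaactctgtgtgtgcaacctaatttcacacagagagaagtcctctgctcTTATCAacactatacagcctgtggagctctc
Alas2, chrX:150547167-150547416, plus strand: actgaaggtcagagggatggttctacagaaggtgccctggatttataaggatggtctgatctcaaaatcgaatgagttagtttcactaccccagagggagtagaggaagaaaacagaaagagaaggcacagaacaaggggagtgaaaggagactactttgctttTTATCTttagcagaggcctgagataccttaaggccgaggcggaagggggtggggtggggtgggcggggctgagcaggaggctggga
Tcf21, chr10:22820144-22820393, minus strand: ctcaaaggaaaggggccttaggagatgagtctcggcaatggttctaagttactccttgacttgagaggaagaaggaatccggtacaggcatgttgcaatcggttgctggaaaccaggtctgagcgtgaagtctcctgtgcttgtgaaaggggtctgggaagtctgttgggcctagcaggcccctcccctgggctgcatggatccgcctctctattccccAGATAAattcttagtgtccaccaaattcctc
Each of the 5 stretches held the motif 1 time, at 162 bases before the start in Hbb-y, 108 in Hba-x, 31 in Rhag, 86 in Alas2 and 31 in Tcf21. Of 32851 stretches of the same length before RefSeq starts, 16.6% held it, as did those of 6 of the 17 genes among the 22 that had a stretch in the table. A match is a string of letters and says nothing on whether a factor was bound. The part of Gata1 in the levels of these genes was not tested.

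Several broad classes also differed in EE3 by less than 4-fold. Of 71 cytosolic ribosomal protein genes with a mean of at least 10 CPM, 65 were highest in EE3, against 34.1% of all 8210 genes, with a median log2 ratio of 0.71, and their sum was 10504, 9703 and 14474 CPM. Rpl4, Rps27l and Rpl8 led them with 2341, 2297 and 2598 TPM, with 1164, 1159 and 1906 TPM and with 1366, 1269 and 1537 TPM. Genes of the mitochondrial genome set EE1 apart instead, with 1.28% of the counts in EE1 against 2.37% and 2.43% in EE2 and EE3, and each of the 10 such genes at the minimum was lowest in EE1, as were 3059 of the 8210 genes. Matrix genes summed to 17675, 11445 and 10607 CPM, and of the 53 at the minimum 39 were highest in EE1 and 39 were lowest in EE3, against 2664 and 3469 of the 8210 genes. Mfap2, a microfibril protein, was at 530, 325 and 299 CPM, and Fbln2, the matrix protein fibulin-2, at 1098, 581 and 338 CPM.

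**Figure D5:**
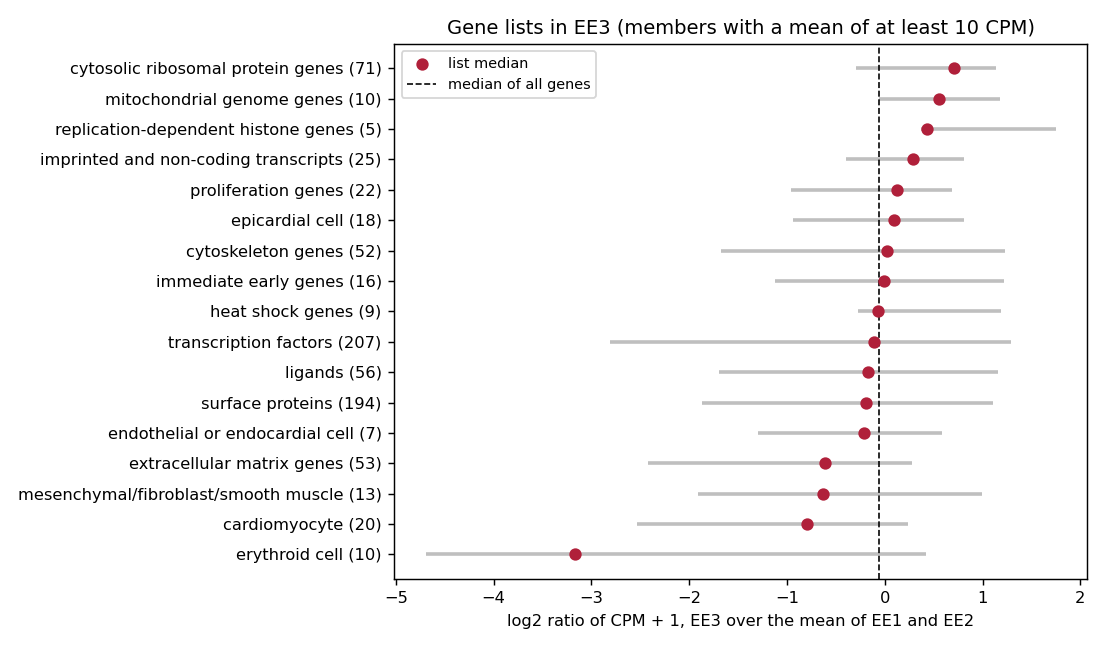
Log2 ratio of CPM + 1 in EE3 over the mean of EE1 and EE2, by gene list, for members with a mean of at least 10 CPM (their number is in parentheses). Points are list medians, grey lines run from the lowest to the highest member, and the dashed line is the median of all genes, -0.06. The erythroid list lies at -3.17 and the ribosomal protein genes at 0.71, while the epicardial list lies at 0.09.

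Of the 18 epicardial genes with a mean of at least 10 CPM, 7 (38.9%) were lowest and 6 (33.3%) highest in EE3, near the shares of all genes, 42.3% and 34.1%. Their median log2 ratio was 0.09. The proliferation genes were also near the median of all genes, at 0.13, with all 22 at 10 CPM or more in each library. Their members went both ways, with log2 ratios from -0.96 to 0.69, 7 genes lowest in EE3 and 9 highest. Rrm2, a subunit of ribonucleotide reductase, was at 536, 720 and 716 CPM, and Cdk1, the mitotic kinase, at 503, 512 and 820 CPM. The heat shock genes summed to 10914, 11213 and 10215 CPM, a sum carried by abundant members such as Hsp90ab1 and Hspa5. Hspe1, the mitochondrial co-chaperonin, was at 137, 145 and 323 CPM and was highest in EE3, as was Hspa1b, an inducible member whose stretches are to 62.3% not unique, at 1.39, 1.97 and 3.14 CPM.

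Levels also moved with gene length. Genes at a mean of 1 CPM or more were sorted into 5 equal groups by the length of their longest annotated transcript, not by merged exons. The shortest group (up to 1848 bases) had a median log2 ratio of 0.25 for EE3 over the mean of EE1 and EE2. The longer groups had medians of -0.04, -0.17, -0.18 and -0.09. Between EE2 and EE1 the medians went from -0.09 in the shortest to 0.20 in the longest group. Ribosomal protein, globin and histone genes have short transcripts. Among these, EE3 was higher for most ribosomal proteins and lower for the globins other than Hbb-bs. The 5 replication-dependent histone genes with a mean of at least 10 CPM were all highest in EE3. Over the whole histone list, 20 genes were lower in EE3 than in both other libraries and 20 were higher. The part of length in these differences was not tested.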

How the data were processed

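RNA of the sorted E10.5 epicardium was sequenced in 3 libraries, and only their columns of the deposited mRNA table were used. The values are whole-number counts of reads per gene, made by the authors from trimmed reads aligned to mm10 (GRCm38.p6). The submitters' notes name Trim Galore 0.4.3.1, STAR and featureCounts, whereas the paper names RSEM as the counter. How reads that match several places were counted is not given in the sources used here. Columns were matched to samples by the library number in their names. No normalization had been applied.

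CPM was taken over column totals, which ran from 18464362 to 24481780 counts. TPM used the merged exon length of GENCODE annotation on GRCm38, known for 53700 of the 55228 genes. EE3 was called apart where log2(CPM + 1) lay at least 2 below, or at least 2 above, both other libraries, among genes with a mean of at least 10 CPM. The common dispersion came from edgeR 4.0.16 in R 4.3.3, and all else from Python 3.11.15 with pandas 2.3.3 and numpy 2.4.6. The calculations were tested on simulated data. No test was run, since 1 group has no contrast and EE3 was singled out by a measured value. DESeq2 1.42.0 size factors, TMM factors, other filters, lengths and pseudocounts, and leaving out each library, were tried as alternatives.

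The members and gene lists were chosen with earlier results of these data known. Genes were named by rank: the 20 highest of all by CPM and by TPM, 12 transcription factors, 12 ligands and 15 surface proteins by TPM, up to 4 leading genes of each other list, and the 10 farthest from both libraries in EE3 in each direction. Some genes that the rule takes are not reported here. The other genes named were chosen after their values were seen. These are Actg1, mt-Co2, mt-Co3, mt-Atp6, mt-Nd4, mt-Te, mt-Tn, Hspe1, Wt1, Krt19, Aldh1a2, Gpm6a, Msln, Myl2, Nkx2-5, Pecam1, Cdh5, Cldn5, Afp, Ptprc, Epcam, Foxd3, Sox1, Pax3, Pax7, Myod1, Gata4, Gata6, Tbx5, Tgfb2, Bmp2, Fgf5, Fgf9, Fgf18, Axl, Tek and Nrp1 as receptors, Pdgfra, Itga4, Vcam1, Btg2, Zfp36, Cdk1, Hspa1b, Slc4a1, Kel, Hbb-bs, Mt2, Afap1l1, Igf2, Xist, Ddx3y, the other members of the 22 genes below both, and the 7 genes by which EE1 and EE2 differed. The count of 50-base stretches at more than 1 place, the zeros at 5 CPM and the motif search were also added after the data were seen.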

Additional observations from a re-analysis of the deposited data

How the results depend on the processing

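Of 85 alternative values for 23 results, 72 stayed within the limits set for them. The limits differed in width between results, so this number is no measure of stability. The mean erythroid sum of 4636 CPM counted as within its limit at 2612 CPM without EE2. The share of the 100 highest genes in EE1, 19.97%, counted as moved at 19.5% without mitochondrial genome genes. The number of genes in which EE3 lay below both libraries rose from 22 to 65 with a mean of at least 1 CPM, to 65 with no filter on level and to 229 at 2-fold, and the number above both rose from 1 to 6, 6 and 50, as more genes or smaller differences could enter. The 100 highest genes took 19.5%, 18.8% and 19.3% of EE1, EE2 and EE3 with mitochondrial genome genes left out. Ranked by CPM without length, 13 of the 20 leading genes and 7 of the 12 leading ligands were shared with the order by TPM. The common dispersion was 0.0742 at a mean of at least 10 CPM, and ran from 0.0850 to 0.208 when 1 library was left out, lowest without EE3 and highest without EE2. No paired analysis was possible because no test was run and the libraries form 1 group. Depth limits what can be said of genes near the level of 3 counts, but at equal totals EE3 still had fewer genes with a count. With 3 pools, spreads between libraries are themselves uncertain, and they hold technical and biological variation together.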

Other observations

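EE1 and EE2 stood at least 4-fold apart in 7 genes. Rgs5, a regulator of G protein signalling known from pericytes, was at 4.57, 42.0 and 4.44 CPM in EE1, EE2 and EE3, and Isl1, a transcription factor of the second heart field, was at 5.27, 36.6 and 2.44 CPM. Both were high in EE2 alone. Pltp, a phospholipid transfer protein, was at 99.4, 22.7 and 13.8 CPM, and Angptl7, a secreted angiopoietin-like protein, at 93.6, 20.03 and 19.5 CPM. Egr2, an immediate early zinc finger factor, was at 39.6, 8.07 and 16.5 CPM. Mpo, the peroxidase of myeloid cells, was at 20.9, 3.99 and 10.1 CPM, and Afp was at 40.9, 1.89 and 9.80 CPM. These 5 genes were highest in EE1.

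Xist, the RNA of the inactive X chromosome, was at 34.3, 34.6 and 46.1 CPM, and Ddx3y, a gene of the Y chromosome, at 44.0, 71.2 and 33.5 CPM, and both were detected in each pool. Igf2, a growth factor of the embryo, was at 57.1, 41.5 and 43.9 CPM, and 62.8% of its exon bases are shared with other genes on the same strand, among them Gm49394.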
